A study of Rattus norvegicus with 16 samples.

Results

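Myh3, Myh8 and Myh13 encode the embryonic, the neonatal and the extraocular isoform of the sarcomeric myosin heavy chain. All probe sets whose only gene symbol in the platform annotation is one of these 3 genes were taken, which gave 7 of the 8799 probe sets on the array. They stand for 3 of the 4737 genes named by probe sets of 1 symbol. Myh3 has 5 of them (K03467_s_at, K03468_s_at, L00370cds_s_at, M12098_s_at and X04267_at), Myh8 has 1 (K02111_at) and Myh13 has 1 (AF075250_at). They are called below by the part of the identifier before the suffix. A probe set that lists Myh8 together with other heavy chains was left out, because its signal has no single gene.

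The arrays hold 3 groups of rat skeletal muscle RNA. EOM is extraocular muscle, the small muscles that turn the eye, on 4 arrays. TA_6h is a muscle that the labels call TA, taken at 6 hours, on 8 arrays. TA_1h is TA muscle taken at 1 hour, on 4 arrays. The labels name no strain, age, sex or treatment, give no collection time for EOM and do not say what event starts the clock. EOM arrays are numbered 1 to 4; TA arrays carry a number and usually a letter, and arrays of 1 number and group were averaged as 1 numbered sample, giving 4 EOM, 4 TA_6h and 2 TA_1h samples. Joining TA_6h arrays 1 and 2, which carry no letter, with 1b and 2b is an inference from the titles. Nothing ties a number to an animal, so the spread behind each p-value may be technical.

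Myosin heavy chain is the motor of the thick filament: its head splits ATP and pulls on actin, and its tail bundles with others into the filament. Vertebrate skeletal muscle chooses among several heavy chain genes, and the choice sets much of a fibre's speed of contraction. Embryonic and neonatal chains are built into fibres before and around birth and again during regeneration, and limb muscle largely replaces them with adult fast and slow chains. Extraocular muscle is known for keeping the developmental chains in some adult fibres and for a fast chain of its own, the product of Myh13.

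In the RefSeq annotation of the GRCr8 rat assembly the 3 genes lie on chromosome 10 in 1 cluster of 6 sarcomeric heavy chain genes. The order is Myh3, Myh2, Myh1, Myh4, Myh8 and Myh13, with 4 other annotated genes among them, 0 of them protein-coding. The sequence around the annotated start of each member is shown because 3 genes of 1 cluster had a higher level in EOM. Each window runs from 250 bases before the start to 50 bases after it on the plus strand, at chr10:52268935-52269234 for Myh3, chr10:52462259-52462558 for Myh8 and chr10:52511523-52511822 for Myh13. Capitals mark matches on either strand to TATAAA, the core of a TATA box, and to CANNTG, the E-box that basic helix-loop-helix factors such as the myogenic regulators bind.

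Myh3: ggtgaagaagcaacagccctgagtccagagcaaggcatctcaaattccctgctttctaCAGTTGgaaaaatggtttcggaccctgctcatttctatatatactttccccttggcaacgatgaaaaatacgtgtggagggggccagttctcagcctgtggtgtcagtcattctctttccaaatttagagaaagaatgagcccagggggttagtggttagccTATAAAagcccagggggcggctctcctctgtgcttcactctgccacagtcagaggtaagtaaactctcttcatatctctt

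Myh8: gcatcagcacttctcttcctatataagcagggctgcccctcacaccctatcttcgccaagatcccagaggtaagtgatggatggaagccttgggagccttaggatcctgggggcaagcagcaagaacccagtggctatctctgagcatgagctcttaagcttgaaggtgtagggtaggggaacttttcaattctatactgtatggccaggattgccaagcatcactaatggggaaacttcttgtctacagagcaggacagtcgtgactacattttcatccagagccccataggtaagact

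Myh13: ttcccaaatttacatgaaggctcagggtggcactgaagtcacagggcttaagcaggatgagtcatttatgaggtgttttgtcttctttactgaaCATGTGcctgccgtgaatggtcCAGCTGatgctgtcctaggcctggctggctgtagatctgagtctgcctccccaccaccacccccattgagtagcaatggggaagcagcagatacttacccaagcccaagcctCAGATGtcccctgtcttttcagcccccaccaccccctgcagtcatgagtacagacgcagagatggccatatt

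The Myh3 window holds 1 TATAAA match, which begins 30 bases before the start, and 1 CANNTG match. The Myh8 window holds 0 matches to either motif, and the Myh13 window holds 0 TATAAA and 3 CANNTG matches. Only the exact letters TATAAA were counted, and looser forms of a TATA box were not searched. The CArG box, bound by serum response factor, and the MEF2 site were also searched and had 0 matches in the 3 windows. No marked match overlaps another. Of 33469 rat promoter windows of the same length, 14.2% hold TATAAA, 72.1% hold CANNTG, 1.64% hold a CArG box and 1.87% hold a MEF2 site. Windows of the neighbouring adult genes hold 1 (Myh2), 2 (Myh1) and 3 (Myh4) TATAAA matches. These are descriptions of letters in 300-base windows placed at annotated starts. Whether transcription in muscle begins at these starts was not tested. A window with 0 matches therefore does not show that the promoter of Myh8 or Myh13 lacks the motif.

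Each array has 1 linear intensity for every probe set, used as the authors deposited it. In EOM 24.3% of all intensities lie below 0, whereas 0 TA intensities do, so the probe summary step of EOM differs and cannot be told apart from muscle in any EOM comparison. All 7 probe sets were above 0 on all 16 arrays. A floor of 56.5, the 25th percentile of all intensities, was set before log2 was taken, and differences below are on this floored log2 scale. On EOM arrays 66.3% to 67.2% of probe sets exceeded it and on TA arrays 74.6% to 81.0%, so more EOM values were set to the floor. What this does to the shares of probe sets called lower in EOM was not tested. Of the TA arrays, 5 (TA_6h 3a, 3b, 4a and 4b and TA_1h 2b) had a beta-actin middle over 3′ control ratio of 0.146 to 0.390, where the remaining 7 TA arrays had 0.815 to 1.28. EOM arrays had 0.891 to 0.978. The GAPDH middle control read 6698 to 51038 on the 5 TA arrays, 856 to 19527 on the remaining 7 and 10659 to 14811 in EOM. It differed widely between some arrays joined as 1 sample, as for TA_1h 1a (1299) and 1b (19479). For TA_6h 4a and 4b it was 20190 and 22046. What this does to the members' values was not tested. All 7 probe sets passed the filter of 4 arrays above the floor. In whole-muscle RNA, a change in the number of fibres with an isoform and a change in RNA per fibre cannot be told apart.

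The question put to the members was how far developmental and extraocular heavy chains differ between eye muscle and TA muscle. Myh8, Myh13 and 4 of the 5 Myh3 probe sets were higher in EOM than in TA_6h, and all 7 probe sets were higher than in TA_1h. The call of L00370 against TA_1h and both calls of X04267 did not hold under every alternative setting, as given below. Across all 7640 tested probe sets, 21.9% were called higher in EOM than in TA_6h and 17.7% higher than in TA_1h, at a limma adjusted p under 0.05. Every EOM array lay above every TA_6h array for 5 of the 7 probe sets, and above every TA_1h array for 6 of 7. Over all tested probe sets the same held for 16.6% and 21.2%. The 5 Myh3 probe sets measure the same gene, so the member counts are not counts of separate genes.

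**Figure D1:**
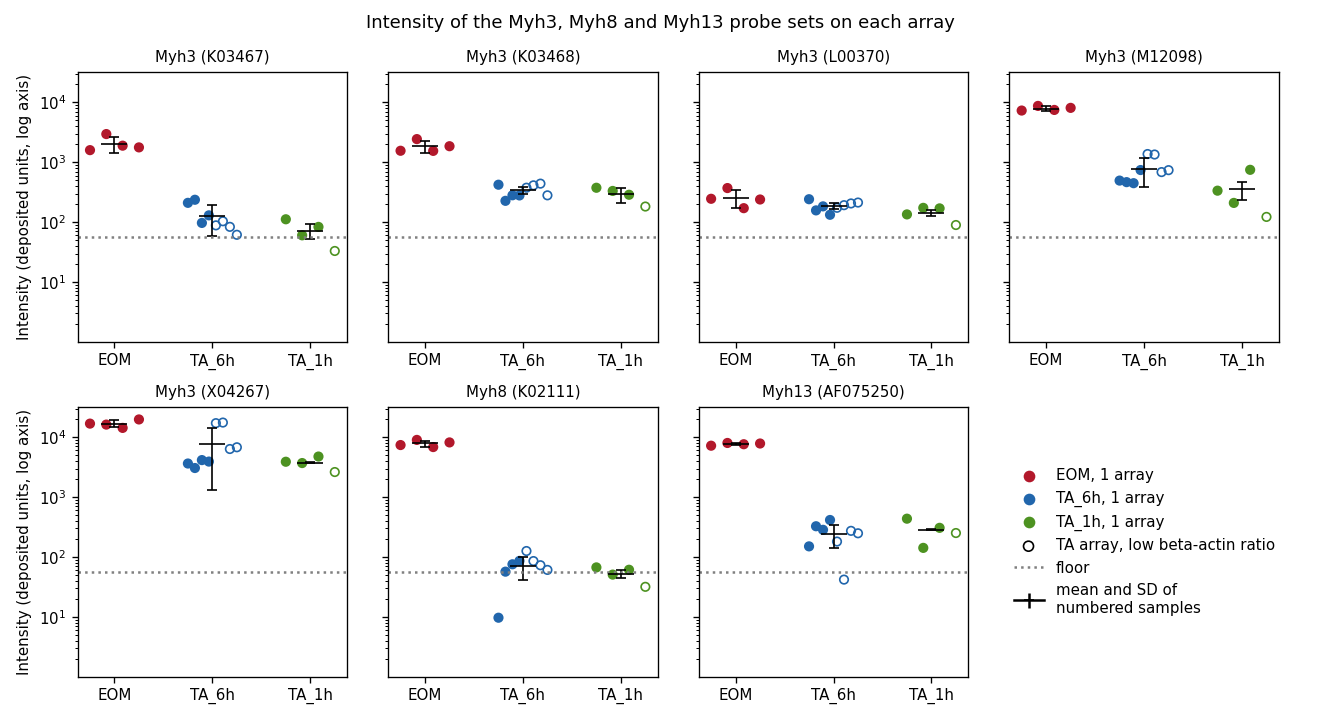
Intensity of each probe set on every array (log axis), by group, with the mean and SD of numbered samples; open points mark the 5 TA arrays whose beta-actin ratio is low, and the dotted line is the floor of 56.5. EOM stands clear of TA for Myh8, Myh13 and 3 Myh3 probe sets, overlaps both TA groups for L00370, and overlaps TA_6h for X04267.

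Myh8, the neonatal chain, had the highest EOM over TA difference of all tested probe sets. Its intensities in EOM were 7398, 9009, 6846 and 8183 (replicates 1 to 4). In TA_6h the lowest of 8 arrays was 9.69, the median 74.2 and the highest 126, and in TA_1h the 4 arrays had 67.1, 50.8, 61.2 and 31.8. TA values thus straddled the floor, with 7 of 8 TA_6h and 2 of 4 TA_1h arrays above it, and no TA array came near EOM. The log2 difference was 6.70 ± 0.20 (SE) against TA_6h, or 104-fold (limma adjusted p = 4.3e-08), and 7.02 ± 0.25 against TA_1h, or 130-fold (limma adjusted p = 2.6e-07). Both rank 1 of 7640, counted from the highest difference. Because TA values lie near the floor, these sizes move with it and are no bounds: with the floor at the 10th percentile they were 6.96 and 7.27, at the 40th both were 5.86, and with log2(value + 50) they were 6.07 and 6.27.

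Myh13, the extraocular fast chain, had the most even EOM values of the members. The 4 EOM arrays gave 7213, 8013, 7633 and 7848, a coefficient of variation of 4.51%. In TA_6h the lowest array had 41.9, the median was 261 and the highest 415, while TA_1h arrays had 436, 142, 307 and 251. Myh13 was above the floor on 7 of 8 TA_6h arrays, as many as for Myh8, and on all 4 TA_1h arrays. On each TA array 74.6% to 81.0% of all probe sets exceeded the floor. Values above it therefore do not show that TA muscle holds Myh13 RNA. The log2 difference was 5.18 ± 0.32 against TA_6h, or 36.2-fold (limma adjusted p = 1.9e-06), ranking 3 of 7640. Against TA_1h it was 4.87 ± 0.40, or 29.2-fold (limma adjusted p = 1.7e-05), ranking 4. The single TA array below the floor was TA_6h 3b, whose partner 3a gave 181. The members' arrays a and b of a TA sample differed most here, by a median of 0.83 on the log2 scale over 6 pairs, which is small beside the distance to EOM. The widest single gap between such arrays among the members was 2.61, for the Myh3 probe set M12098 in TA_1h sample 2.

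Myh3, the embryonic chain, was measured by 5 probe sets that did not give a single answer. M12098 gave 7313, 8734, 7486 and 8107 in EOM, against 448 to 1374 (median 713) in TA_6h and 336, 210, 749 and 123 in TA_1h. K03467 gave 1597, 2961, 1895 and 1774 in EOM, against 61.6 to 237 (median 100.5) in TA_6h and 112, 60.4, 83.5 and 33.1 in TA_1h. In both probe sets the lowest EOM array was several times the highest TA array. Their log2 differences against TA_6h were 3.45 ± 0.29 for M12098 and 4.12 ± 0.34 for K03467, which rank 38 and 12 of 7640. Against TA_1h they were 4.80 ± 0.36 and 4.73 ± 0.41, ranking 5 and 7. All 4 limma adjusted p-values were at most 2.6e-05. One TA_1h array of K03467 lay below the floor, and its difference from TA_1h was 3.89 with the floor at the 40th percentile and 4.11 with log2(value + 50).

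K03468 stood between the extremes. Its EOM arrays gave 1559, 2440, 1552 and 1856, against 227 to 440 (median 329) in TA_6h and 376, 333, 287 and 183 in TA_1h. The groups did not overlap, and the difference was 2.46 ± 0.22 against TA_6h (limma adjusted p = 1.6e-05) and 2.68 ± 0.27 against TA_1h (limma adjusted p = 5.4e-05). These are folds of 5.49 and 6.39.

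X04267, the brightest Myh3 probe set, gave a smaller difference that 1 TA sample moved strongly. It read 16861, 16238, 14298 and 19792 in EOM. In TA_6h the 4 arrays of samples 1 and 2 read 3637, 3060, 4149 and 3919, those of sample 4 read 6352 and 6789, and those of sample 3 read 17156 and 17560. TA_1h read 3894, 3701, 4755 and 2621. Both arrays of TA_6h sample 3 therefore lay inside the EOM range, while the other 6 TA_6h arrays and all TA_1h arrays lay well under it. The log2 difference was 1.41 ± 0.44 against TA_6h (2.67-fold, limma adjusted p = 0.024) and 2.19 ± 0.54 against TA_1h (4.56-fold, limma adjusted p = 0.010). Without TA_6h replicate 3 the first was 1.91. The call was lost when EOM replicate 4 was left out (1.33, limma adjusted p = 0.058), and likewise for replicates 1 (1.11, limma adjusted p = 0.060) and 2 (1.20, limma adjusted p = 0.065) of TA_6h. The second was not called without TA_1h replicate 1 (limma adjusted p = 0.060) or replicate 2 (limma adjusted p = 0.068).

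L00370 was the one Myh3 probe set with little difference. It gave 246, 372, 172 and 239 in EOM, against 133 to 242 (median 188) in TA_6h and 135, 174, 170 and 89.7 in TA_1h, and EOM overlapped both TA groups. Against TA_6h the log2 difference was 0.42 ± 0.23, with a 95% interval of -0.10 to 0.94 (limma adjusted p = 0.17). Against TA_1h it was 0.85 ± 0.29 (1.80-fold, limma adjusted p = 0.041). That call was lost in 14 of 27 alternatives, among them the fits without EOM replicate 2 (0.65, limma adjusted p = 0.064) and without TA_1h replicate 2 (0.69, limma adjusted p = 0.22). It was also lost without EOM replicates 1 or 4, TA_1h replicate 1 or TA_6h replicates 1 or 3, and with the replicate block (0.95, limma adjusted p = 0.066).

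The disagreement among Myh3 probe sets was tested within samples. For each pair of probe sets, the log2 difference between them was taken in every numbered sample and compared between EOM and TA_6h with a two-sided exact permutation test. With 4 samples against 4 the smallest p this allows is 0.029. Of 10 pairs, 7 reached it, each with a Benjamini-Hochberg adjusted p of 0.041. The widest gap was between K03467 and L00370, whose EOM to TA_6h differences were 3.70 apart, followed by L00370 and M12098 (-3.03) and by K03467 and X04267 (2.71). K03467 and M12098, the probe sets with the highest differences, were 0.67 apart (exact permutation p = 0.31). K03468 and X04267 were 1.04 apart (exact permutation p = 0.057), and L00370 and X04267 were -0.99 apart (exact permutation p = 0.14). So a fold for Myh3 depends on the probe set, and the values here are given for each. Heavy chain genes are close paralogs, and the suffix _s marks probe sets that can match more than 1 transcript, as for 4 of the 5 Myh3 probe sets. How much signal the probe sets share with neighbouring heavy chains was not tested.

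**Figure D2:**
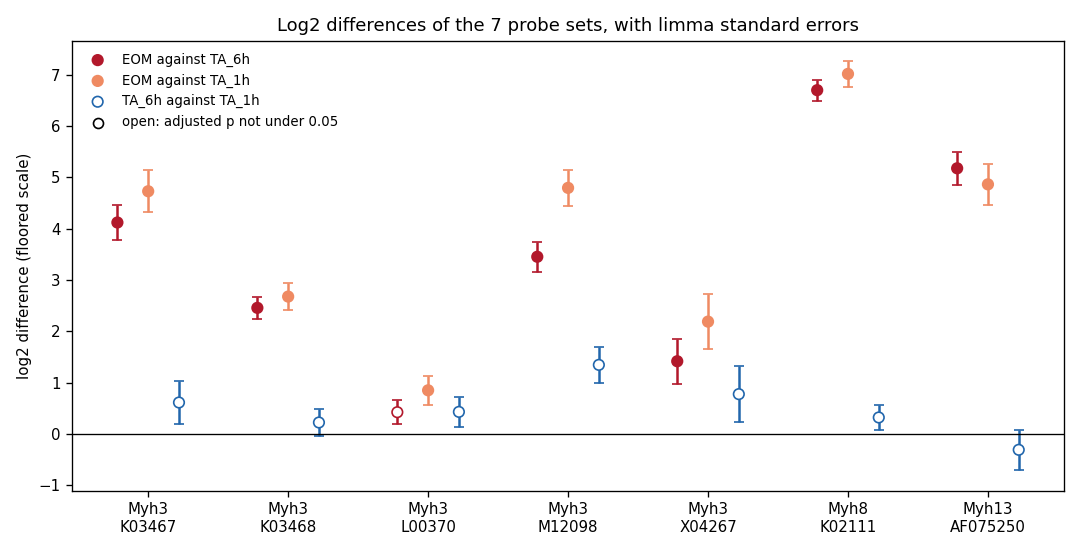
Log2 differences (floored scale) of the 7 probe sets with limma standard errors; filled points have an adjusted p under 0.05. EOM differences run from 0.42 for L00370 to 7.02 for Myh8, and no TA_6h to TA_1h difference is filled.

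**Figure D3:**
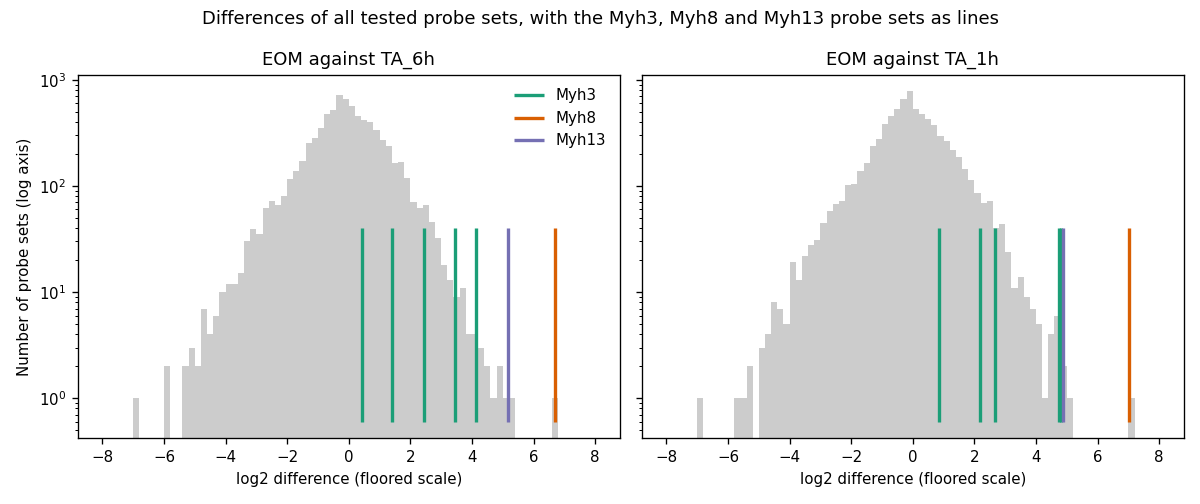
Histograms of the log2 differences of all 7640 tested probe sets (log count axis), EOM against TA_6h and EOM against TA_1h, with the members as coloured lines of fixed height. Myh8 stands at the right end of both, Myh13 ranks 3 and 4, and the Myh3 lines spread from near the centre to the upper tail.

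Within EOM, replicate 2 had the highest value of the 4 for 6 of the 7 probe sets and replicate 4 for the remaining one, X04267. The coefficient of variation over EOM samples ran from 4.51% for Myh13 through 8.17% for M12098, 12% for Myh8 and 13.5% for X04267 to 22.5% for K03468, 29.9% for K03467 and 32.4% for L00370. These spreads are small beside the differences from TA, except for L00370.

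The comparison of TA_6h with TA_1h asks whether collection time goes with a change in these genes. None of the 7 probe sets was called by limma, and 1, M12098, had an unadjusted p under 0.05. Over all 7640 probe sets, 0% were called higher and 0% lower, with 424 at an unadjusted p under 0.05. M12098 averaged 788 ± 394 (SD, n = 4) in TA_6h and 354 ± 115 (SD, n = 2) in TA_1h, a log2 difference of 1.34 ± 0.36 with a limma adjusted p of 0.59. X04267 averaged 7828 ± 6503 in TA_6h and 3743 ± 77.6 in TA_1h (log2 0.77, 95% interval -0.43 to 1.98). Myh8 averaged 71.7 ± 30.2 in TA_6h and 52.7 ± 8.80 in TA_1h (log2 0.32, 95% interval -0.24 to 0.88). Myh13 averaged 240 ± 98.2 in TA_6h and 284 ± 7.06 in TA_1h (log2 -0.31, 95% interval -1.20 to 0.57). The 95% intervals of the Myh3 probe sets K03467, K03468 and L00370 ran from -0.32 to 1.54, from -0.37 to 0.81 and from -0.21 to 1.07. With 2 numbered samples in TA_1h these intervals are wide, and they do not show that the groups are alike. Over the whole table the median of this difference was 0.01.

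The 2 highest TA values of X04267 and of M12098 were those of TA_6h sample 3, whose arrays have a low beta-actin ratio. X04267 read 2621 to 17560 (median 6789) on the 5 arrays of low ratio and 3060 to 4755 (median 3894) on the other 7 TA arrays. M12098 read 123 to 1374 (median 739) on the 5 arrays and 210 to 749 (median 467) on the other 7, where TA_1h 2a (749) and TA_6h 2b (743) exceeded both arrays of TA_6h sample 4. The lowest of both sets of 5 was TA_1h 2b, which also had the lowest beta-actin ratio of all, 0.146. K03467 ran the other way, with 33.1 to 104 (median 83.7) on the 5 arrays and 60.4 to 237 (median 112) on the other 7, and its highest TA values were the 2 arrays of TA_6h sample 1. So the Myh3 probe sets did not pick the same TA sample as the highest.

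Without the 5 arrays the EOM to TA_6h difference was 2.19 for X04267 and 3.91 for M12098, and with only these as TA it was 0.64 (limma adjusted p = 0.24) and 3.0. For Myh8 these values were 6.85 and 6.55, and for Myh13 they were 4.80 and 5.56. Against TA_1h, M12098 differed by 4.14 without the 5 arrays and by 6.01 with only array 2b as TA_1h. Between the TA groups, X04267 differed by -0.21 and M12098 by 0.24 without the 5 arrays. With only these arrays M12098 was 3.01 higher in TA_6h (limma adjusted p = 0.018), where TA_1h is array 2b alone and is assumed to vary like the other groups. Whether RNA quality has a part in these values was not tested.

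**Figure D4:**
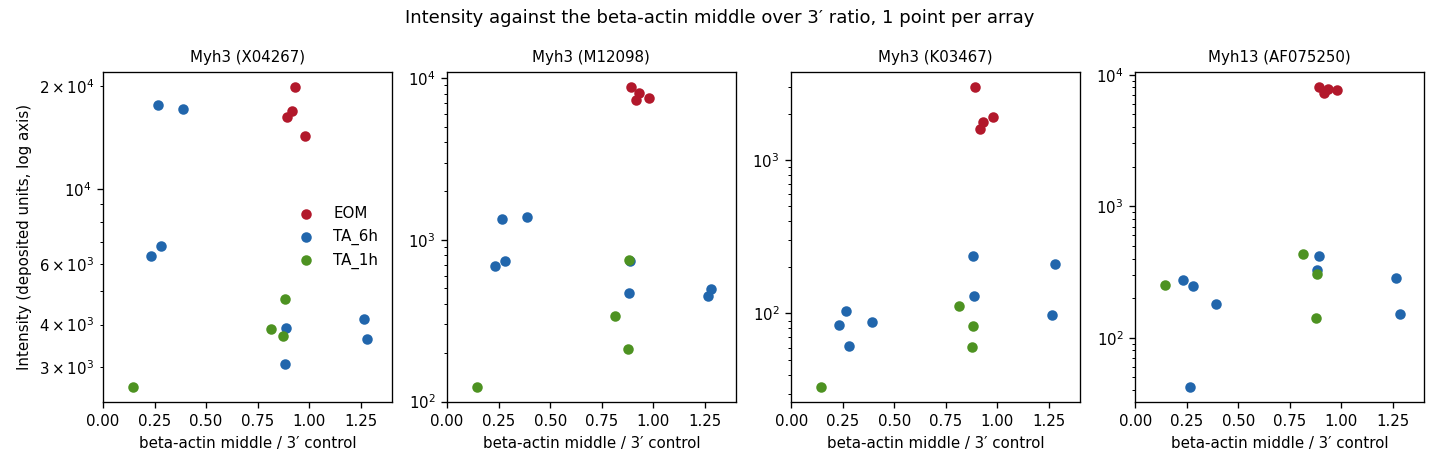
Intensity (log axis) against the beta-actin middle over 3′ control ratio, 1 point per array, for 3 Myh3 probe sets and Myh13. On the left of each panel lie the 5 TA arrays of low ratio, where X04267 reaches 17560 and K03467 stays at or under 104.

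By the brightest probe set of each gene, most of the other sarcomeric heavy chains measured were lower in EOM than in TA_6h. The probe sets of Myh6 did not share 1 direction. The brightest probe sets of Myh1 and Myh2 end in a plain _at, that of Myh4 in _s_at, and those of Myh6 and Myh7 in _f_at. How much signal those of Myh4, Myh6 and Myh7 share with each other was not tested, so their differences may not be separate. Of 8 listed adult and cardiac genes 5 were measured by a probe set of 1 symbol. Taking the brightest probe set of each, 4 of 5 were called lower and 0 higher in EOM than in TA_6h, with a list median of -0.65, where 25.3% of all probe sets were called lower and the median over 4317 genes was -0.10. Against TA_1h 1 was higher and 1 lower (list median -0.69), where 19.5% of all probe sets were called lower and the median over genes was -0.09. Myh1, the fast 2X chain, differed by 0.38 ± 0.21 against TA_6h (limma adjusted p = 0.16) and by 1.02 ± 0.25 against TA_1h (limma adjusted p = 0.011). Its call against TA_1h was lost without TA_1h replicate 1, and when TA was restricted to the 5 arrays of low ratio, with limma adjusted p-values of up to 0.081 over the alternatives. Myh2, the fast 2A chain, differed by -0.65 ± 0.20 against TA_6h and -1.43 ± 0.25 against TA_1h, and the call against TA_1h was made in 26 of 26 alternatives. Myh4, the fast 2B chain, differed by -0.65 ± 0.23 and -0.69 ± 0.28, and only the first passed the test (limma adjusted p = 0.038), in 15 of 26 alternatives.

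The slow chain Myh7 differed by -0.81 ± 0.23 against TA_6h and -0.30 ± 0.28 against TA_1h, and the cardiac chain Myh6 by -1.0 ± 0.28 and -0.81 ± 0.34. For both of these brightest probe sets, only the difference from TA_6h passed the test. A second Myh7 probe set was lower in both comparisons, by -2.04 ± 0.28 against TA_6h (limma adjusted p = 0.00028) and -1.22 ± 0.35 against TA_1h (limma adjusted p = 0.020). A second Myh6 probe set differed by 1.98 from TA_6h and was called higher, so the gene has no single direction here. Against TA_6h the calls were made in 20 of 26 alternatives for Myh2, 25 for Myh6 and 24 for Myh7. For Myh2 the lost calls include those without EOM replicate 3 and without TA_6h replicates 1 or 3, and for Myh4 those without any single EOM replicate and without TA_6h replicates 3 or 4. For Myh6 and Myh7 they were lost without the 5 TA arrays of low ratio. Quantile normalization and scaling to the same median also ended the Myh4 call. None of these 5 probe sets turned sign against TA_6h under an alternative.

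For the lists that follow, the shares of all probe sets called were those given above: 21.9% higher and 25.3% lower against TA_6h, and 17.7% higher and 19.5% lower against TA_1h. A list's count near these shares is no result about that list. Of 13 measured genes of fetal and neonatal muscle 3 were called higher and 5 lower in EOM than in TA_6h, with a median of -0.30, and 3 higher and 4 lower than in TA_1h, with a median of 0.05. Myl4, the embryonic and atrial light chain, was higher (2.81 ± 0.25 against TA_6h), while the thick filament protein Mybph (-1.39 ± 0.19) and the fetal non-coding RNA H19 (-1.38 ± 0.16) were lower. For the fetal and neonatal list the share called higher than in TA_6h is near that of all probe sets. Of 9 measured myogenic factors 2 were higher and 3 lower than in TA_6h, and 3 higher and 3 lower than in TA_1h, few genes to set against those shares. Myog, myogenin, was at the floor on every EOM array and lower than in TA_6h, by a log2 difference that depends on the floor (-2.54 to -5.81 over the alternatives). Its mean EOM intensity was -293. Intensities below 0 occur only in EOM, so for genes at the floor there the muscle and the probe summary step cannot be told apart. The adhesion molecule Ncam1 of the fetal list was also at the floor on every EOM array (mean intensity -274). Id2, an inhibitor of basic helix-loop-helix factors, was higher (1.97 ± 0.25), and Myod1, the myoblast determination factor, was lower (-1.31 ± 0.25).

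Of 7 measured partners of the heavy chain in the thick filament 0 were higher and 5 lower than in TA_6h, and 0 higher and 4 lower than in TA_1h. Among them were fast myosin-binding protein Mybpc2 (-2.77 ± 0.23), the slow light chain Myl3 (-1.83 ± 0.24) and the fast light chain Myl1 (-1.04 ± 0.16). Calls for these light chains, Mybpc2, Myl4, Mybph, H19, Myog, Id2 and Myod1 were made in 26 of 26 alternatives against TA_6h.

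Counts for markers of other cells are read against the same 21.9% higher and 25.3% lower. Of 9 markers of nerve and Schwann cells, 7 were called higher and 0 lower than in TA_6h, with a summed intensity of 11790 to 15700 in EOM, 2872 to 3647 in TA_6h and 2924 to 3930 in TA_1h. S100b (3.17 ± 0.26), the myelin protein genes Mbp (3.09 ± 0.17) and Pmp22 (2.96 ± 0.30) led this list, and Sox10, a Schwann cell factor, was at the floor on every TA array. Fibroblast and matrix markers were 4 higher and 1 lower of 10 (summed 75558 to 92070 in EOM, 56773 to 92612 in TA_6h and 44936 to 59910 in TA_1h), led by the proteoglycan Lum (4.42 ± 0.27), the receptor Pdgfra (1.64 ± 0.18) and fibronectin, Fn1 (1.39 ± 0.36). The 1 lower was another proteoglycan, Bgn (-0.97 ± 0.22), a call lost with only the 5 TA arrays of low ratio. Smooth muscle markers were 2 higher and 2 lower of 5 (5251 to 7425, 2663 to 13665 and 3881 to 7434 in the same groups), with Cnn1 at the floor on every EOM array (mean intensity -118). Caldesmon, Cald1 (3.11 ± 0.36), and smooth muscle heavy chain Myh11 (2.50 ± 0.46) were higher and Tagln (-2.50 ± 0.71) was lower, the last a call lost without the 5 TA arrays of low ratio and with only those as TA. Cardiac markers were 2 higher and 3 lower of 6 (6127 to 6934, 6108 to 14285 and 5977 to 10662). The natriuretic peptide gene Nppa was at the floor on every EOM array (mean intensity -274) and Nppb on every TA_1h array. Nppb was 2.44 ± 0.60 higher than in TA_6h, a call lost with only the 5 TA arrays of low ratio, and the atrial light chain Myl7 was lower (-1.06 ± 0.16). Gland and ocular markers were 3 higher and 1 lower of 7 (3140 to 3543, 1583 to 3009 and 1869 to 2247), led by Rom1 (2.50 ± 0.30), the keratin Krt5 (1.83 ± 0.28) and Pip (1.48 ± 0.30). The 1 lower was another keratin, Krt18 (-1.03 ± 0.22), a call lost with the floor at the 40th percentile and with quantile normalization. No non-muscle heavy chain had a probe set of 1 symbol. Their part in the members' values was not tested.

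Of 11 measured genes that define adult skeletal muscle, 1 was higher and 4 lower in EOM than in TA_6h, against 21.9% and 25.3% of all probe sets, and none was at the floor throughout a group. Muscle creatine kinase, Ckm, was above the floor on all 4 EOM arrays but on 5 of 8 TA_6h and 3 of 4 TA_1h arrays, so this marker was not detected above it on part of the arrays labelled TA. The other measured genes of the list were above the floor on 8 of 8 TA_6h arrays. All of them except Acta1 (3 of 4) were above it on 4 of 4 TA_1h arrays. Ckm was 4.39 ± 0.82 higher in EOM than in TA_6h, a call lost without the 5 TA arrays of low ratio and with a term for them. Muscle enolase, Eno3, was lower (-1.02 ± 0.26).

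The genes whose pattern was most like each member were listed by Pearson's r over the 10 numbered samples on the floored log2 scale. These points fall into EOM and TA sets, so r is given as a description. For Myh8 the 5 probe sets were those of Sox10 (r = 0.997), Pbsn (0.997), Map2 (0.997), F10 (0.996) and Ndrg4 (0.995). All but Ndrg4 had their lowest TA sample at the floor. For Myh13 they were Rfk (0.993), Stmn1 (0.993), Cdc5l (0.993), Fzd1 (0.992) and Cyp1b1 (0.991), with EOM to TA_6h differences of 1.54 to 3.64. For the brightest Myh3 probe set they were 2 probe sets of Ldhb, lactate dehydrogenase B (0.949 and 0.918), Il2rb (0.935), Apoe, apolipoprotein E (0.933) and Pja2 (0.926).

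**Figure D5:**
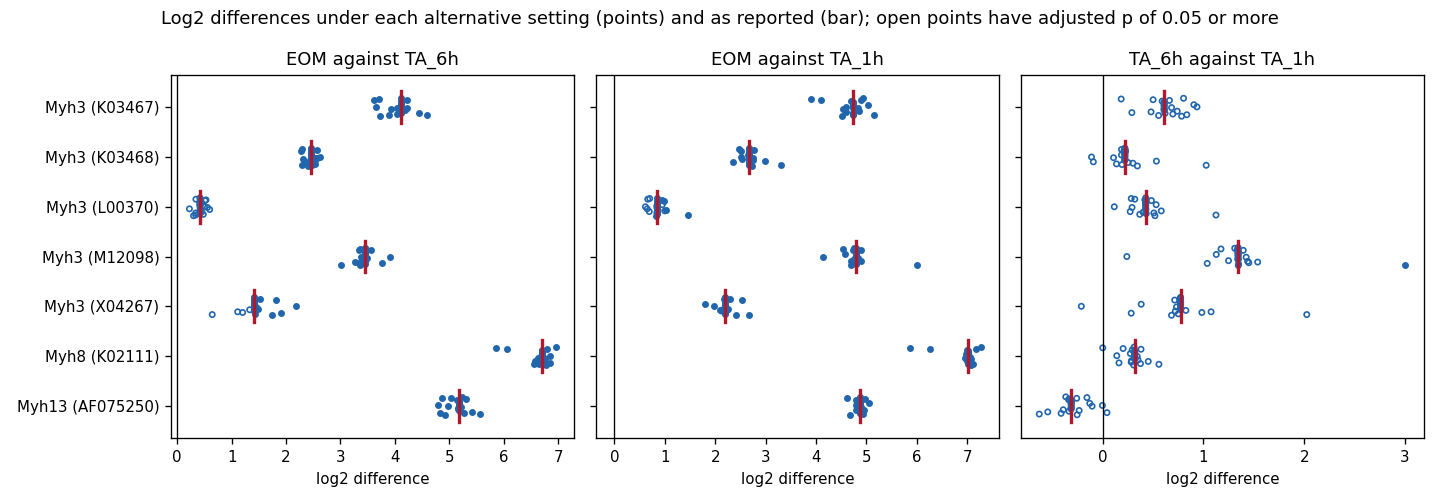
Log2 differences of each probe set under every alternative setting (points, open where the adjusted p is 0.05 or more) and as reported (bars). Myh8 and Myh13 stay between 4.61 and 7.27 in both EOM comparisons, and X04267 runs from 0.64 to 2.19 against TA_6h.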

How the data were processed

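RNA levels were read on 1-colour arrays. The authors deposited linear intensities; how they summarised probes was not given in the sources used here. Trimmed means of 801.1 to 801.8 per array (2% at each end) show a common scale. Values were floored at 56.5, the 25th percentile, log2 was taken, arrays of 1 number and group were averaged, and 59 control probe sets were removed. The 7640 that exceeded the floor on 4 or more arrays entered a single fit of 3 groups with limma 3.58.1 in R 4.3.3 (lmFit, eBayes, 7 residual and 2.83 prior degrees of freedom). Benjamini-Hochberg adjustment ran over all of them, with calls under 0.05. Every adjusted p without another test named is limma's. Errors are limma standard errors for differences and SDs over numbered samples for intensities. The fit was tested on simulated data. The number of arrays limits precision.

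Gene symbols come from the platform annotation: 7018 probe sets have 1 symbol, 308 several and 1473 none listed. Of the 7 probe sets 6 matched a RefSeq entry by gene number, and Myh13 by symbol. Sequence windows were placed at RefSeq's annotated starts on GRCr8. Lists use the brightest tested probe set of each gene. The naming rule took all member probe sets, all adult heavy chains, for each other list up to 3 genes called between EOM and TA_6h with the widest difference, and the 5 probe sets most alike. Genes at the floor on every array of a group, Acta1, Bgn and Krt18 were named as well, chosen after their values were seen. The members and lists were chosen with earlier results of these data known. Alternatives covered the floor, offset, scaling, filter, averaging, blocks, variance trend, groups fitted and left-out arrays. Python 3.11.15 with matplotlib 3.10.9 drew the figures.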

Additional observations from a re-analysis of the deposited data

How the results depend on the processing

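The count of member probe sets called was 6 against TA_6h and 7 against TA_1h. When all 16 arrays had to exceed the floor it was 3 and 4, since Myh8, Myh13 and K03467 leave the test; elsewhere it kept within 1.5 times. Between the TA groups it was 0, and 1 when TA was restricted to the 5 arrays of low beta-actin ratio. That alternative and the term for these arrays were chosen after seeing the data. Calls for Myh8, Myh13, M12098, K03467 and K03468 in both EOM comparisons were made under every alternative in which they were tested (26 or 27). X04267 was called in 23 of 27 against TA_6h and 25 of 27 against TA_1h. L00370 was called in 0 of 27 and 13 of 27. Signs that turned were all between TA_6h and TA_1h, where nothing was called: without the 5 arrays K03468 was -0.11 and X04267 -0.21, and leaving out 1 numbered sample gave -0.093 (without TA_1h replicate 2) to 0.53 for K03468 and -0.55 to 0.042 (without TA_6h replicate 3) for Myh13. The cause was not tested. With the replicate block 6 members were called in each EOM comparison, X04267 with a difference of 1.41 from TA_6h; L00370 against TA_1h was the only member call it changed. Deviations of EOM and TA_6h samples of the same number correlated at 0.02 to 0.10 over tested probe sets. Of these, 4 of 4 EOM samples and 2 of 4 TA_6h samples correlated best with their own number. The main fit left samples unpaired because no label ties a number to an animal. Whether samples of the same number share an animal or a batch was not tested. Over all probe sets the calls were 3606 against TA_6h, and 1927 when all 16 arrays had to exceed it, where fewer were tested. Against TA_1h they were 2843, 1512 with that filter and 1861 without TA_1h replicate 1. Between the TA groups they were 0, and 8 with no filter, 45 without the 5 arrays, 681 with only these and 11 with a term for them, and 1 with the filter of all 16 arrays, with each array as its own sample, without the TA_6h arrays that carry no letter and without TA_6h replicates 3 or 4. Signal near the floor limits the Myh8 fold.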
